A study of Rattus norvegicus with 4 samples.

Results

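The genes described here move sterols out of cells or answer to the liver X receptors, and comprise 8 of the 16992 genes measured in rat liver. They were chosen by gene symbol and are *Abcg5*, *Abcg8*, *Abca1*, *Abcg1*, *Nr1h3*, *Mylip*, *Scarb1*, and *Lpcat3*. Each of the 8 genes had 1 row in each table and a level above 2 TPM in all 4 libraries, so none was lost to a filter on low values. TPM is a transcript level corrected for gene length and for library size.

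RNA from the left lateral liver lobe was sequenced in 4 male wild-type Wistar rats, 1 rat for each condition, aged 6 weeks at purchase and kept without food and water for 2 hours beforehand. The rats breathed 4.5% sevoflurane or 6% desflurane in 50% oxygen through a nose cone, either for 6 h or only until consciousness was lost, and the brief exposure to the same agent was its control. All 4 rats were killed at about 3 PM. With 1 rat for each condition, animal and condition cannot be told apart, the effect of either agent could not be tested, and differences below are between single libraries. The 6 h rats were also without food during anesthesia, so exposure time and time without food cannot be told apart.

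Liver X receptors are nuclear receptors that bind oxysterols, the oxidized forms of cholesterol, and act on DNA together with the retinoid X receptors. When sterols accumulate they raise genes that carry cholesterol out of the cell, that pass it into bile, and that limit the uptake of lipoproteins. In the liver, the same receptors also raise *Srebf1* and through it fatty acid synthesis.

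*Abcg5* and *Abcg8* encode sterol transporters that work only as a joined pair in the membrane facing the bile canaliculus, and the genes stand head to head. In the rn6 tables *Abcg5* lay at chr6:7935771-7961207 on the minus strand and *Abcg8* at chr6:7961413-7980708 on the plus strand, with 205 bases between their starts. The stretch between the starts is shown because any promoter element in it lies upstream of both genes. It is taken from RefSeq (GRCr8, chr6:15717731-15717935, plus strand, the *Abcg8* end first), where the pair has the opposite orientation. Capitals mark TATAAA and GATAAG as well as ATTGG, the reverse complement of CCAAT.

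Abcg8-Abcg5 interval: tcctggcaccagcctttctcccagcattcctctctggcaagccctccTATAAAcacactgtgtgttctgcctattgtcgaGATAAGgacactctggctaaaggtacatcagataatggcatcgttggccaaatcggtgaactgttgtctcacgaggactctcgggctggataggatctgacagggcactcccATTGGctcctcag

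The TATAAA match began 48 bases from the *Abcg8* start, GATAAG, the core letters bound by GATA factors, began 81 bases from it, and the ATTGG match ended 9 bases from the *Abcg5* start. TATAAA and GATAAG read in the direction of *Abcg5* and ended 153 and 120 bases from its start. Promoter windows of 250 bases before and 50 bases after the start were given for 6 of the 8 genes, and not for *Abcg1* and *Scarb1*. On either strand, TATAAA was present in 14.2%, GATAAG in 7.05%, and CCAAT in 37.5% of all 33469 windows. AGGTCA is the consensus of the site to which the receptors bind. These exact letters were in none of the 6 windows and in 16.2% of all windows. The receptors are known to bind 2 such sites repeated in the same direction with 4 bases between them, and each window was scored by the fewest mismatches to the 12 letters of this repeat on either strand. The best match was that of *Abca1* with 3 mismatches, and 21.9% of all windows had a match as good or better. *Abcg5*, *Abcg8*, *Nr1h3*, and *Lpcat3* had 4 mismatches at best, and 77.6% of all windows had 4 or fewer. *Mylip* had 5, and 99.7% of windows had 5 or fewer. A perfect repeat was in 0.00598% of all windows and in none of the 6. The windows of *Abcg5* and *Abcg8* share the 205 bases between the starts, so they are not separate cases. The 250 bases before the *Abca1* start are shown as those with the best match (GRCr8, chr5:72596474-72596723, minus strand). Capitals mark CACGTG, then the match to the repeat on the reverse strand, then TATAAA.

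Abca1 upstream: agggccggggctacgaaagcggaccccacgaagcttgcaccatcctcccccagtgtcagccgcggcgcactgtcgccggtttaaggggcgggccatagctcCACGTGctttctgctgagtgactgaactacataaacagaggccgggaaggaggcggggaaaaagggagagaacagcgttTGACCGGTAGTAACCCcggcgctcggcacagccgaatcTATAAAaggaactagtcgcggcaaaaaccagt

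The CACGTG match spans bases -149 to -144, the match to the repeat bases -70 to -55, and TATAAA bases -32 to -27, counted back from the start. CACGTG was in 6.42% of all windows. These matches describe letters in the windows and were not tied to any measurement of binding. Since the score counts exact letters only, it cannot show whether a window holds or lacks a site for the receptors.

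The libraries corresponded to between 4.47 and 5.4 Gb of aligned sequence, as derived from the ratio of FPKM to coverage. Average coverage of the 8 genes ranged from 6.47 reads per base for *Mylip* after sevoflurane to 179.8 for *Nr1h3* in the desflurane control. Read counts were not used here, and no counting interval is given. Across the 9136 genes with TPM values above 2 in all 4 libraries, log2 changes against the own control had a median of 0.05 for sevoflurane and of 0.12 for desflurane. Summed hepatocyte markers, of which all 8 were present, lay between 146979 and 163186 TPM and were led by *Alb*. Endothelial markers lay between 260 and 294 TPM, stellate cell and fibroblast markers between 291 and 328 TPM, and cholangiocyte markers between 14.5 and 21.4 TPM. Pancreatic acinar markers summed to 62.5 TPM in the sevoflurane control and to between 16.5 and 18.9 TPM in the other libraries. Most of the sum in those other libraries was *Cela1*, between 15.1 and 18.4 TPM, beside 22.8 TPM in the sevoflurane control. *Ctrb1*, *Prss1*, and *Pnlip* stood at 8.94, 6.58, and 3.45 TPM in the sevoflurane control and at 0 in the other libraries. *Cpb1* stood at 5.91 TPM in that control and reached 2.59 TPM after desflurane. The part of such RNA in the levels of the 8 genes was not tested. Lymphocyte markers lay between 3.30 and 9.17 TPM, and erythroid markers between 50.6 and 121 TPM. Markers of small intestine lay between 417 and 527 TPM, nearly all of it *Apoa4*, which rat liver also expresses, and *Alpi* was at 0 in all 4 libraries.

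*Abcg5* and *Abcg8* varied most among the 8 genes. Levels were high in the sevoflurane control and after 6 h of desflurane, and low after 6 h of sevoflurane and in the desflurane control. *Abcg5* stood at TPM levels of 47.9 in the sevoflurane control, 28.3 after sevoflurane, 19.9 in the control for desflurane, and 55.9 after desflurane. *Abcg8* stood at TPM levels of 22.7, 7.02, 7.84, and 21.1 in the same order. The library pairs that were alike thus crossed the agents and the exposure times. Markers of Kupffer cells and macrophages stood in the same order as *Abcg8*, at 809, 485, 641, and 757 TPM, as did lymphocyte markers at 9.17, 3.30, 4.81, and 6.03 TPM, and their part in the levels of the transporters was not tested. The highest level exceeded the lowest 2.81-fold for *Abcg5* and 3.24-fold for *Abcg8*, compared with ratios between 1.19 and 1.5 for the other 6 genes.

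**Figure D1:**
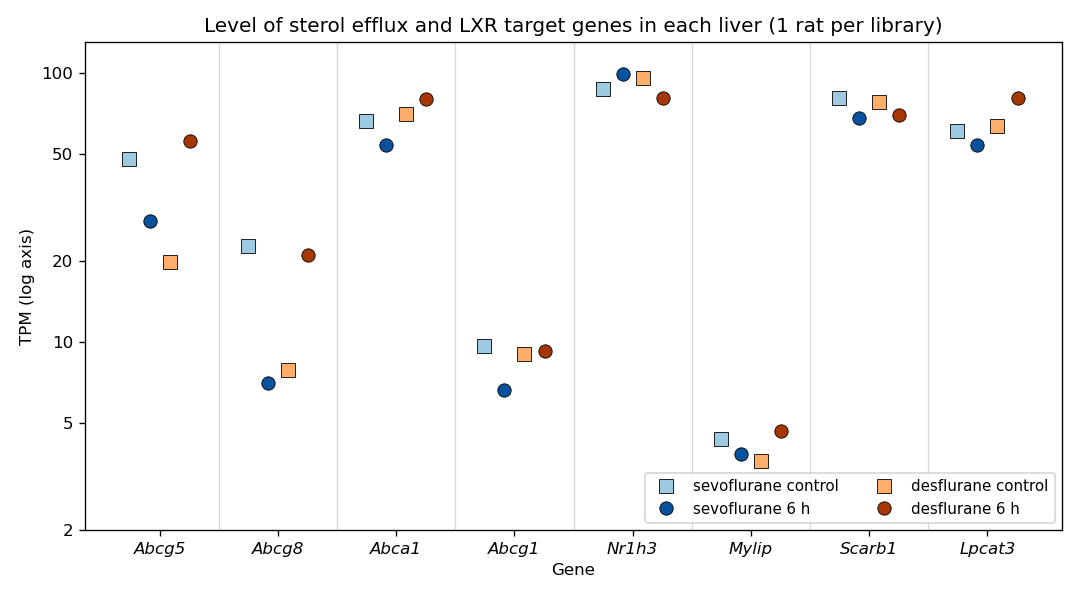
TPM values (log axis) of the 8 genes in the 4 libraries, 1 point for each library and 1 rat for each library, with squares for controls and circles for 6 h of anesthesia. *Abcg8* lies at 22.7 and 21.1 in the sevoflurane control and after desflurane, and at 7.02 and 7.84 in the other libraries, whereas the points of *Scarb1* lie between 68.0 and 80.9.

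Relative to its own control, sevoflurane was accompanied by a 3.24-fold lower level of *Abcg8*, a log2 change of -1.69. *Abcg5* was 1.70-fold lower, a log2 change of -0.76, and did not pass the 2-fold limit. A gene was called when its TPM value was above 2 in the higher library and differed more than 2-fold. Under this rule 1 of the 8 genes was lower with sevoflurane and 0 were higher, while 3.30% of the 9754 genes able to pass were lower and 2.23% were higher. Among these genes, 1.84% moved at least as far in either direction as *Abcg8*.

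With desflurane, both transporters of the bile canaliculus were higher than in the control of that agent. *Abcg5* was 2.81-fold higher, a log2 change of 1.49, and *Abcg8* was 2.69-fold higher, a log2 change of 1.43. These were the 2 called genes among the 8, and 0 were called lower, compared with 2.79% higher and 1.48% lower among the 9855 genes able to pass. Among these genes, 1.57% moved at least as far as *Abcg5* and 1.71% at least as far as *Abcg8*.

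The controls themselves differed at the same genes. *Abcg5* was 2.41-fold lower and *Abcg8* was 2.90-fold lower in the desflurane control than in the sevoflurane control, 2 of 8 genes called lower against a background of 1.17% of 9756 genes. A difference this large between the controls was reached by 1.49% of genes for *Abcg5* and by 1.01% for *Abcg8*. Comparisons below share control libraries with those above and are set side by side only.

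Set against the other agent's control, neither gene passed the limits in either 6 h library. *Abcg5* was 1.42-fold higher after sevoflurane than in the desflurane control and 1.17-fold higher after desflurane than in the sevoflurane control. *Abcg8* was 1.12-fold lower and 1.08-fold lower in these comparisons. The direction of *Abcg5* with sevoflurane and that of *Abcg8* with desflurane thus depended on the control. None of the 8 genes was called in either direction in these 2 comparisons by the same limits, beside 5.12% of genes for sevoflurane and 4.42% for desflurane. Between the 6 h libraries, *Abcg8* was 3.0-fold higher with desflurane and was the 1 gene called higher, against 2.76% of all genes, and *Abcg5* was 1.98-fold higher.

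**Figure D2:**
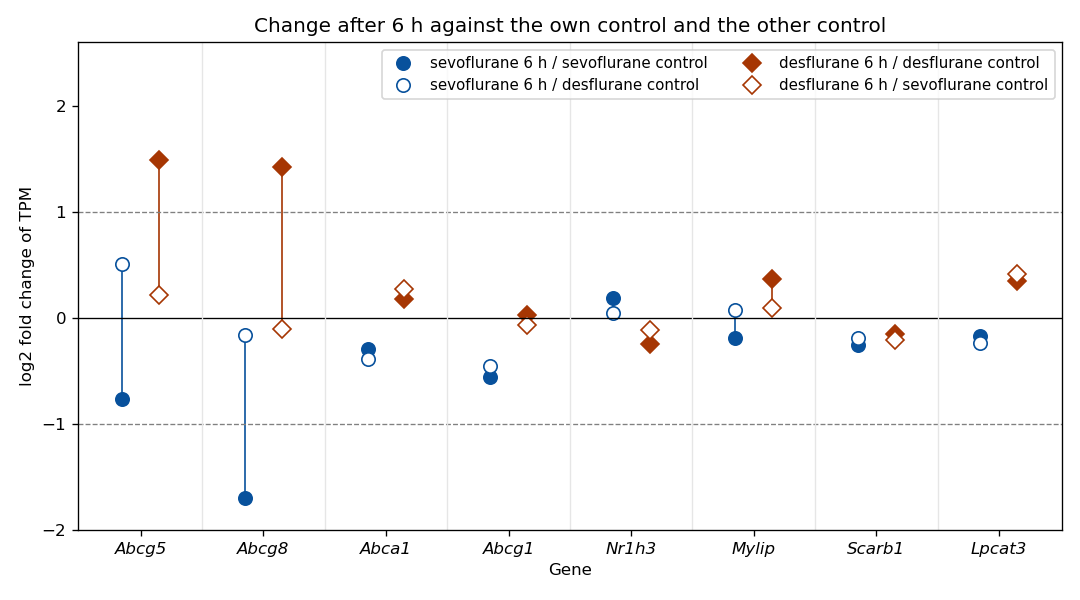
The log2 fold change of TPM for the 8 genes after 6 h of sevoflurane (circles) and desflurane (diamonds), against the own control (filled) and the control of the other agent (open), with lines joining the values of 1 agent and dashed lines at a 2-fold change. The lines are long for *Abcg5* and *Abcg8*, where *Abcg8* with sevoflurane moves from -1.69 to -0.16, and short for the other genes.

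The ratio of *Abcg5* to *Abcg8* was not the same in all livers. It was 2.11 in the sevoflurane control, 2.53 in the desflurane control, and 2.65 after desflurane, but 4.02 after sevoflurane. In that library *Abcg8* was at its lowest level, with a coverage of 11.9 reads per base, while *Abcg5* was above its level in the desflurane control. The rows that StringTie assembled at the locus gave *Abcg5* values within 0.0627% and *Abcg8* values within 6.39% of the annotated rows. These rows come from the same reads, and for *Abcg5* they had the coordinates of the annotated row in every library. They are thus no separate measurement of the lower *Abcg8* level after sevoflurane.

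Genes with a course like that of *Abcg8* were looked for among the 9135 other genes with TPM values above 2 in all 4 libraries, by the distance between log2 values centred over the 4 libraries. The nearest were *RGD1307603* (distance 0.45), *Hells* (0.46), *Il1b* (0.59), *Arhgap8* (0.64), and *Pdgfc* (0.66). Levels of *Il1b*, between 2.26 and 4.71 TPM, and of *Pdgfc*, between 2.49 and 6.27 TPM, reached down close to the limit of 2 TPM. *Hells* encodes a chromatin remodelling helicase, *Il1b* the cytokine interleukin-1 beta, and *Pdgfc* a platelet-derived growth factor. *Abcg5* ranked 7 of 9135 with a distance of 0.68, whereas the ranks of the other members ran from 707 for *Abcg1* to 7769 for *Nr1h3*. *RGD1307603* stood at TPM levels of 1302 in the sevoflurane control, 295 after sevoflurane, 476 in the desflurane control, and 956 after desflurane.

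Among the genes that load cholesterol onto HDL, *Abca1*, which lipidates newly secreted apolipoprotein A-I, varied 1.49-fold. The TPM levels were 66.2 in the sevoflurane control, 53.9 after sevoflurane, 70.7 in the desflurane control, and 80.3 after desflurane. The controls lay between the 6 h libraries, 1.23-fold above the sevoflurane library and 1.14-fold below the desflurane library. These directions were kept with the other control, at 1.31-fold lower and 1.21-fold higher.

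The row of *Abca1* spans chr5:69860747-69952466 in rn6, on the minus strand. The assembled rows at this locus reached between 30478 and 30539 bases beyond the annotated start in all 4 libraries. They were split into a part near the annotated 3′ end, with TPM values of 67.1, 49.1, 69.6, and 72.0 in the order sevoflurane control, sevoflurane, desflurane control, and desflurane, and a part with the upstream extension at 59.9, 49.3, 62.0, and 72.7. Both parts were lowest after sevoflurane and highest after desflurane, as was the annotated row. After desflurane the part near the 3′ end was only 1.03-fold above its level in the desflurane control, and the other part was 1.17-fold above. The assembled rows come from the same reads and are no separate measurement. The 5 genes nearest to *Abca1* by the measure used for *Abcg8* were *Rwdd3*, *RGD1305464*, *Glyatl1*, *Iyd*, and *Pwwp2a*, at distances between 0.01 and 0.06, and *Lpcat3* ranked 96 and *Abcg1* 668.

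*Abcg1*, which passes cholesterol to mature HDL and is prominent in macrophages, lay at chr20:9743269-9840489 on the plus strand. It stood at TPM levels of 9.69 in the sevoflurane control, 6.61 after sevoflurane, 9.05 in the desflurane control, and 9.24 after desflurane. The sevoflurane library was the low one, 1.47-fold below its own control and 1.37-fold below the other control, and 17.8% of genes moved at least as far in the comparison with its own control. The remaining 3 libraries were within 1.07-fold of each other.

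The assembled rows, examined after the values were seen, divided *Abcg1* into an upstream and a downstream part in all 4 libraries. The upstream part, between bases 9743206 and 9776437 of chromosome 20, stood at TPM levels of 4.79, 2.26, 3.25, and 5.0 in the order above, and the downstream part had values of 9.76, 6.69, 8.96, and 9.34. After sevoflurane the upstream part was 2.12-fold lower than in its own control, compared with 1.46-fold for the downstream part. Against the desflurane control the upstream part was 1.44-fold lower and the downstream part 1.34-fold lower. The controls differed 1.48-fold in the upstream part. Coverage of the upstream part was between 3.83 and 8.61 reads per base.

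The Kupffer cell and macrophage markers given above were lowest after sevoflurane, as was *Abcg1*. Of the 12 markers listed, 11 were present, and none of these was at 0 in any library. *Marco*, *Csf1r*, *Adgre1*, and *Cd5l* were called lower with sevoflurane against its own control, beside 3.30% of all genes able to pass. *Marco* and *Cd5l* were also more than 2-fold below the desflurane control. *Csf1r* and *Adgre1* were not, at 25.6 and 7.29 TPM after sevoflurane and 42.4 and 13.1 TPM in the desflurane control. The part of these cells in the level of *Abcg1* was not tested, and in whole tissue fewer cells of a type and less RNA per cell cannot be told apart.

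*Nr1h3* encodes liver X receptor alpha, the form that prevails in liver, and was the most abundant of the 8 genes in the controls and after sevoflurane. Its row spans chr3:80004161-80012743 on the minus strand. TPM values were 87.2 in the sevoflurane control, 99.2 after sevoflurane, 96.0 in the desflurane control, and 80.8 after desflurane. It was 1.14-fold higher with sevoflurane and 1.19-fold lower with desflurane, so that the receptor was lowest in the library with the highest *Abcg5*. Among all genes able to pass, 57.9% moved at least as far with sevoflurane and 47.0% with desflurane.

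*Mylip* encodes a ubiquitin ligase that marks lipoprotein receptors for degradation and was the least abundant of the 8 genes. On chr17:19682040-19703681, minus strand, it stood at TPM levels of 4.36 in the sevoflurane control, 3.82 after sevoflurane, 3.62 in the desflurane control, and 4.67 after desflurane. Its order across the libraries was that of *Abcg5*, but the range was 1.29-fold and coverage was at most 7.86 reads per base.

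*Lpcat3*, whose enzyme inserts polyunsaturated fatty acids into membrane phospholipids, followed *Abca1* in order. On chr4:157181795-157222997, plus strand, its TPM values were 60.7 in the sevoflurane control, 53.8 after sevoflurane, 63.5 in the desflurane control, and 80.8 after desflurane. It was 1.13-fold lower with sevoflurane and 1.27-fold higher with desflurane, and the assembled rows had the same coordinates and values in all 4 libraries.

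*Scarb1* encodes the HDL receptor SR-BI, through which hepatocytes take up cholesteryl esters, and brings cholesterol in where the transporters above carry it out. On chr12:36694957-36761445, plus strand, it stood at TPM levels of 80.9 in the sevoflurane control, 68.0 after sevoflurane, 77.7 in the desflurane control, and 70.0 after desflurane. It was the 1 gene of 8 that was lower with both agents against both controls, by 1.11-fold to 1.19-fold. Both 6 h libraries lay below both controls for 13.0% of the 9136 genes, and outside the range of the controls in either direction for 47.4%.

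Without *Abcg5* and *Abcg8*, the log2 changes of the remaining 6 genes lay between -0.55 and 0.19 with sevoflurane and between -0.25 and 0.37 with desflurane, relative to the respective controls. The median over all 8 genes was -0.27 with sevoflurane and 0.27 with desflurane, beside medians of all genes of 0.05 and 0.12. With the control of the other agent these medians of the 8 genes were -0.18 and 0.02. Directions against the own controls were opposite between the agents for 7 of the 8 genes and for 39.4% of the 9136 genes. With the controls exchanged, they were opposite for 3 of the 8, *Abca1*, *Nr1h3*, and *Lpcat3*, and for 38.1% of the 9136 genes. The direction of *Abcg1* with desflurane, at 0.03, turned when values were scaled by median of ratios, without rRNA genes, or as FPKM. It also turned with the control of the other agent, at -0.07, and with the mean of the controls, at -0.02.

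**Figure D3:**
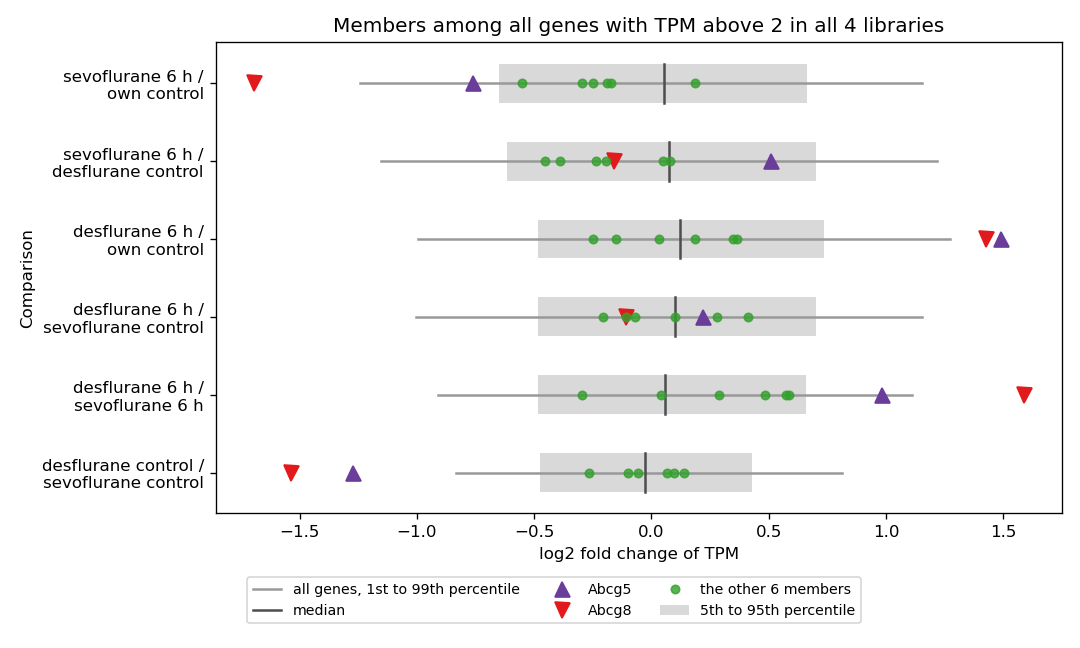
The log2 fold change of TPM of the 8 genes in 6 comparisons, drawn over the range of the 9136 genes with TPM values above 2 in all 4 libraries (thin line, 1st to 99th percentile; box, 5th to 95th percentile; vertical line, median). *Abcg8* (downward triangles) lies beyond the thin line in 4 comparisons, including that between the controls at -1.54, and inside the box in both comparisons with the control of the other agent, while the other 6 members (dots) lie inside the box throughout.

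Further genes of sterol handling were examined as lists chosen by symbol with earlier results of these data known, 106 genes present of 113 listed. Sevoflurane was accompanied by 4 genes called higher and 4 called lower among the 94 able to pass, each 4.26%, and desflurane by 2 higher and 2 lower among 93, each 2.15%. For all genes the shares were 2.23% higher and 3.30% lower with sevoflurane, and 2.79% higher and 1.48% lower with desflurane. The median log2 changes of the 90 genes above the TPM limit in all libraries were -0.04 with sevoflurane and 0.12 with desflurane, beside 0.05 and 0.12 for all genes.

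Of the receptor partners and cofactors, 1 of 16 was called with sevoflurane and 0 with desflurane. *Nr1h2*, which encodes the beta form of the receptor, stood at TPM levels of 32.3 in the sevoflurane control, 26.6 after sevoflurane, 24.1 in the desflurane control, and 29.2 after desflurane. *Rxra*, the most abundant of them, had values of 265, 272, 248, and 349. The 1 gene called in this list was *Nr0b2*, a repressor of bile acid synthesis genes, with values of 43.8, 18.4, 16.6, and 23.5. Like *Abcg5* and *Abcg8*, *Nr0b2* was high in the sevoflurane control and low after sevoflurane and in the desflurane control, but after desflurane it stayed 1.86-fold below the sevoflurane control. The 8 listed regulators of *Abcg5* and *Abcg8*, led by *Hnf4a* with 246, 226, 199, and 216 TPM, included no gene called with either agent against its own control.

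Of the 7 genes able to pass among 11 for making and clearing oxysterols and bile acids, *Cyp7a1*, the rate-limiting enzyme of bile acid synthesis, was called. It stood at TPM levels of 83.5 in the sevoflurane control, 194 after sevoflurane, 70.4 in the desflurane control, and 101 after desflurane, which is 2.32-fold higher with sevoflurane and 1.44-fold higher with desflurane. *Cyp7a1* was highest in the library in which *Abcg8* was lowest, at 7.02 TPM. It was lowest in the desflurane control, where *Abcg8* was nearly as low, at 7.84 TPM.

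Of the 21 other targets of the receptor able to pass, 2 were called lower and 0 higher with each agent. *Srebf1*, the receptor target that drives lipogenesis, stood at TPM levels of 136 in the sevoflurane control, 69.5 after sevoflurane, 181 in the desflurane control, and 74.3 after desflurane. It was lower with both agents, 1.96-fold with sevoflurane and 2.43-fold with desflurane, where it was called. *Scd*, a fatty acid desaturase, was called lower with desflurane, from 789 to 389 TPM, and had 567 TPM without and 605 TPM with sevoflurane. After desflurane it was 1.46-fold below the sevoflurane control and was not called there. *Fads2*, another desaturase, was called 2.53-fold lower with sevoflurane, from 1283 to 506 TPM, and was 1.92-fold lower with desflurane, from 1277 to 665 TPM. *Cd5l*, a protein secreted by macrophages that also stands among the macrophage markers above, was called 2.72-fold lower with sevoflurane, from 90.6 to 33.4 TPM. *Apoe*, the most abundant target, varied between 8143 and 9116 TPM.

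Among genes of HDL and of cholesterol storage, *Nceh1* was called with both agents. This hydrolase of cholesteryl esters stood at TPM levels of 19.8 in the sevoflurane control, 49.6 after sevoflurane, 10.9 in the desflurane control, and 46.9 after desflurane. It was 2.51-fold and 4.30-fold higher against the own controls, and 4.55-fold and 2.37-fold higher against the other controls, so that both 6 h libraries were above both controls. *Apoa2*, an apolipoprotein of HDL, was called 2.44-fold lower with sevoflurane, from 1644 to 674 TPM, and had 1288 and 1282 TPM without and with desflurane. After sevoflurane it was 1.91-fold below the desflurane control and was not called there. *Apoa1*, the most abundant gene here and the acceptor of cholesterol from the product of *Abca1*, had values of 3407, 3880, 2781, and 3992.

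In the remaining lists, *Vldlr*, a receptor that is also a substrate of the *Mylip* ligase, was called 2.66-fold higher with sevoflurane at a low level, from 1.15 to 3.07 TPM. After sevoflurane it was 1.63-fold above the desflurane control and was not called there. *Usp2*, a deubiquitinating enzyme, was called 3.03-fold higher with desflurane, from 5.50 to 16.7 TPM, and had 15.1 TPM in the sevoflurane control. *Mboat7*, a relative of *Lpcat3* that acts on phosphatidylinositol, was called 2.02-fold higher with sevoflurane, from 15.4 to 31.1 TPM, and was 1.95-fold lower with desflurane, from 29.3 to 15.0 TPM. Against the control of the other agent it was only 1.06-fold higher with sevoflurane and 1.03-fold lower with desflurane. No gene among the 7 related ABC transporters present, 5 of them able to pass, was called with either agent against its own control, and the most abundant of them, *Abca8a*, had values of 70.8, 50.7, 84.3, and 79.6. The most abundant genes of the other lists were *Ube2d3*, a ubiquitin-conjugating enzyme, between 192 and 216 TPM, and *Pemt*, which makes phosphatidylcholine, between 142 and 158 TPM.

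**Figure D4:**
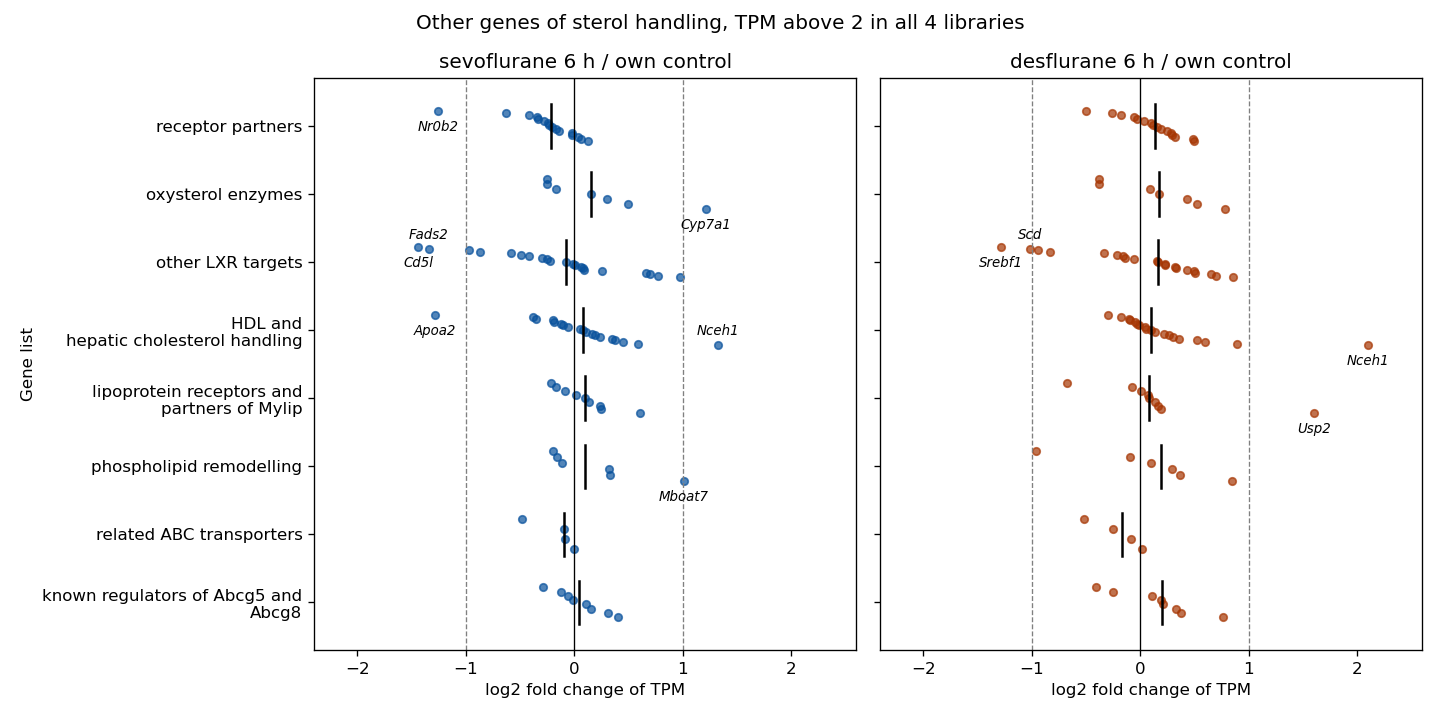
The log2 fold change of TPM against the own control for the genes of 8 related lists with TPM values above 2 in all 4 libraries, with sevoflurane on the left and desflurane on the right (points, single genes; black ticks, list medians; dashed lines, 2-fold change), and with called genes named. *Nceh1* lies to the right of the 2-fold line in both panels, and list medians lie between -0.22 and 0.20; *Vldlr* was below the TPM limit in part of the libraries and is not drawn.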

How the data were processed

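The authors trimmed the reads with sickle, mapped them to rn6 with HISAT2, sorted them with SAMtools, and quantified them with StringTie and the refGene annotation. The deposited coverage is a signal averaged over the exons of a gene and not scaled to library size, and the deposited FPKM values are scaled to length and depth. The deposited TPM column is a signal in which the assembled rows alone fill the scale and the annotated rows stand beside them. Here, annotated rows longer than 200 base pairs were kept and TPM values were summed by symbol.

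The calling rule was that of the study, a TPM value above 2 in the higher library and a difference of more than 2-fold. The members, the related lists, and the marker lists were chosen with earlier results of these data known. Named genes were the 8 members, of each related list the most abundant and the called genes, *Srebf1*, *Nr1h2*, *Rxra*, *Cyp7a1*, *Apoe*, and the 5 genes nearest in profile to *Abcg8* and *Abca1*. Some genes that this rule names are not reported here. How promoter windows were scored was decided after their sequences had been seen. Python 3.11.15 with pandas 2.3.3 was used.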

Additional observations from a re-analysis of the deposited data

Results flagged for a closer look

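For 7 of the 8 genes the change against the own control had opposite signs with the agents, as for 39.4% of the 9136 genes with TPM values above 2 in all libraries, and the difference was not tested, since each condition has 1 library. The log2 change with desflurane minus that with sevoflurane was 3.12 for *Abcg8* and 2.25 for *Abcg5*. It was 0.58 for *Abcg1*, whose sign with desflurane turned under other scalings and with the other control, 0.55 for *Mylip*, 0.52 for *Lpcat3*, 0.48 for *Abca1*, and -0.44 for *Nr1h3*. For *Abcg8* and *Abcg5* the log2 differences between the controls, -1.54 and -1.27, enter these values directly. With the controls exchanged, signs were opposite for 3 of the 8 genes, *Abca1*, *Nr1h3*, and *Lpcat3*, and for 38.1% of the 9136 genes.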

How the results depend on the processing

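In all, 13 alternatives were computed, and the assembled row in place of the annotated row was chosen after seeing the data. The counts of called members changed with the other agent's control, the mean of the controls, and the lower fold limit, and with no other of these. With a fold limit of 1.5, 2 genes were lower with sevoflurane instead of 1. With the control of the other agent, 0 genes were lower with sevoflurane and 0 were higher with desflurane, and *Abcg8* with desflurane changed sign to -0.11. With the mean of the 2 controls, 0 genes were higher with desflurane. Scaling by median of ratios, removal of rRNA genes, and FPKM in place of TPM each moved log2 changes of the 8 genes by at most 0.13 and turned 1 direction, that of *Abcg1* with desflurane, which was 0.03. In the same order, they lowered the log2 change of *Abca1* with desflurane from 0.18 to 0.06, 0.07, and 0.11. The other control also turned *Abcg5* and *Mylip* with sevoflurane and *Abcg1* with desflurane. With the mean of the controls, *Abcg1* with desflurane turned as well. Both other-control and mean-control values share libraries with the comparisons they replace. Of the 8 annotated rows, that of *Mylip* had the lowest coverage in every library. No paired analysis was possible because each agent has 1 control library and 1 exposed library, and for the same reason no replicate could be left out. A fit of exposure over both agents together, with agent as a block, was not run.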
